A study of Mus musculus with 43 samples.

Results

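Transcription factors of the kidney epithelium were followed from segment to segment of the female mouse proximal tubule. The set held 7 genes, chosen by name: Pax8, Pax2, Maf, Tfcp2l1, Lhx1, Emx1 and Cux1. All 7 had a row among the 54532 genes of the expression table, and all 7 were among the 16053 genes with a TPM (abundance per transcript length, as a part of a constant total) of at least 1 somewhere along the tubule, which were compared.

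The proximal tubule takes back most of the filtered solutes and has 3 successive parts, S1, S2 and S3. Pieces of each were dissected by hand, 2 to 5 tubules a sample, from female C57BL/6 mice aged 6 to 8 weeks, and their RNA was sequenced in 6 libraries for S1, 6 for S2 and 7 for S3. By the numbers in the sample titles these came from 2 animals for S1, 3 for S2 and 4 for S3, with no animal in common between S1 and S2. The study set out to compare expression and chromatin of the segments and of the sexes; the comparison here is between the female segments.

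The authors deposited 1 TPM value per gene and segment. No spread between libraries can be given, so no difference has a replicate check or a p-value, no order of neighbouring levels can be set against an error, and the depth is unknown. Differences are in log2(TPM + 1), which understates the fold of low genes, and a difference of 1, which is 2-fold, was the threshold for calling a gene higher or lower. Calls of at least 2-fold are on that scale, while folds given as values are plain TPM ratios. TPM scales for transcript length, so levels of different genes can be set side by side. In pieces of tissue, fewer cells of a type and less RNA per cell cannot be told apart.

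Transcription factors of this kind bind short DNA motifs and set which genes a nephron segment uses. Pax2 and Pax8 are paired-box proteins that in the mouse act together to establish the nephric lineage, and Lhx1, a LIM-homeodomain protein, is needed for the nephric duct and for nephron formation. Maf is a large basic leucine zipper protein, best known from the lens and from immune cells. Tfcp2l1, of the CP2 family, patterns the cells of the mouse collecting duct. Emx1 is a homeodomain protein known from the developing forebrain. Cux1, also called CCAAT displacement protein, is a cut-repeat homeodomain protein known as a repressor of cell-cycle inhibitor genes.

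The labelled segments carried their markers. The summed TPM of 5 S1 markers was 18372, 2434 and 34.3 in the successive columns, that of 2 S2 markers was 8.2, 443.6 and 2.1, and that of 4 S3 markers was 3.3, 2550 and 4272. The S2 and S3 columns both held the S3 markers. Xist was present in each column and the 4 Y-linked genes were listed at 0. Markers of vessels and blood cells were uneven: 8 endothelial markers summed to 70.0 TPM (S1), 654 (S2) and 261 (S3), 8 macrophage markers to 6.5, 99.1 and 56.8, and 7 stromal markers to 2.1, 18.9 and 1.9. The 6 lymphocyte markers summed to no more than 4.8 TPM and the 4 of the distal convoluted tubule to no more than 3.5, while 5 genes of the whole proximal tubule summed to 16330, 9121 and 7504.

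Over the 3 segments 3 of the 7 genes had a highest value at least 2-fold over their lowest: Maf and Tfcp2l1, highest in S1, and Emx1, highest in S3. The other 4, Pax8, Pax2, Lhx1 and Cux1, stayed within 2-fold, as did 66.7% of all genes compared. Cux1 had the highest level of the set in every segment and Pax8 the next highest, while Pax2 was the lowest of the set in each. The 7 genes summed to 228, 204 and 218 TPM from S1 to S3. The share of Pax8 in that sum was 19.5%, 30.3% and 36.5%, and that of Maf 8.37%, 3.78% and 0.917%.

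**Figure D1:**
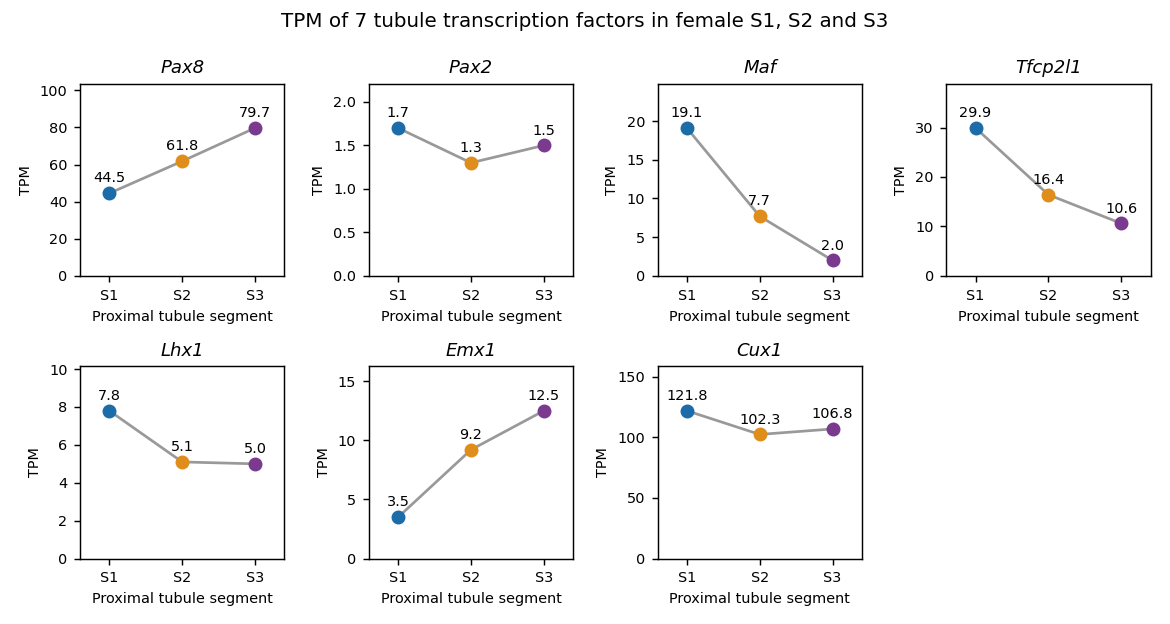
TPM (y axis, from 0, with its own scale for each gene) of the 7 transcription factors in S1, S2 and S3; each point is the authors' single value for that segment, with no error available. Maf and Tfcp2l1 decline from left to right, the Emx1 and Pax8 points go up, Pax8 within 2-fold, and Pax2, Lhx1 and Cux1 stay within 2-fold.

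Against S2, S1 had 1 of the 7 genes at least 2-fold higher, Maf, and 1 at least 2-fold lower, Emx1. Among all genes compared 6.62% were higher in S1 and 17.7% lower, so that 27.2% of the differences were in the direction of S1, a share that was 44.3% under quantile normalization and 37.4% under median-of-ratios scaling. Against S3, S1 had Maf and Tfcp2l1 higher and Emx1 lower, where the shares of all genes were 10.5% and 13.1%. Between S2 and S3 just Maf differed, higher in S2, where 8.74% of all genes were higher in S2 and 2.24% lower; 79.6% of these differences were toward S2, or 63.1% under quantile normalization. The median difference of the 7 genes was 0.25 (S1 minus S2), 0.19 (S1 minus S3) and -0.06 (S2 minus S3), beside -0.18, -0.01 and 0.12 for all genes compared. With so few genes these counts lie close to the background and say nothing about the set as a whole.

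**Figure D2:**
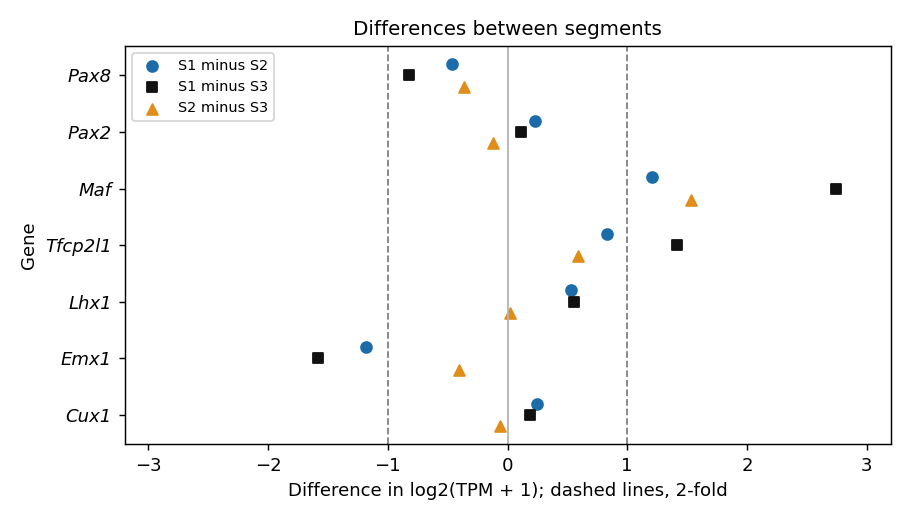
Differences in log2(TPM + 1) for each gene (x axis) between S1 and S2 (circles), S1 and S3 (squares) and S2 and S3 (triangles), with dashed lines at 2-fold. Maf lies right of the right-hand line in all 3 contrasts, Tfcp2l1 in S1 minus S3, and Emx1 lies left of the left-hand line in both contrasts with S1.

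Maf had the steepest gradient. S1 held 19.1 TPM, S2 7.7 and S3 2.0. S1 thus stood 2.48-fold over S2, and S2 3.85-fold over S3, differences of 1.21 and 1.54 in log2(TPM + 1). Across the whole tubule, S1 stood 9.55-fold over S3, a difference of 2.74. At least 2-fold lower at each of the steps from S1 to S2 and from S2 to S3 were 1.33% of all genes compared, and 94.4% of all genes had a smaller range over the segments than Maf. The Maf locus spans 115703253 to 115706894 of chromosome 8 (GRCm38.p6). Maf is also expressed by macrophages and other immune cells. Of the 8 macrophage markers summed above, 7 had their lowest value in S1, and Csf1r, at 0.5, 32 and 46.9 TPM, made up most of the sum in S3. Adgre1, at 0.2, 2.1 and 0.1 TPM, was lowest in S3. The part of macrophages in the Maf values was not tested.

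The small Maf proteins, which lack a transactivation domain and pair with CNC factors, were flatter than Maf. Mafg was at 46.4, 42.6 and 29.2 TPM from S1 to S3 and Mafk at 17.7, 15 and 17.6, so Mafg had 2.43-fold the level of Maf in S1 and 14.6-fold in S3. The CNC partners Nfe2l2, a regulator of the oxidative stress response (26.2, 32.4 and 27.3 TPM), and Nfe2l1, a regulator of proteasome genes (19.9, 28.9 and 40.1 TPM), did not pass the 2-fold line, although Nfe2l1 came close to it with -0.98 for S1 minus S3. Of the 7 compared genes on the list of Maf relatives and partners, none differed at least 2-fold in any of the 3 contrasts, where 66.7% of all genes compared had no such difference. Nfe2l1 was on the line for S1 minus S3 under quantile normalization, and past it at -1.01 without the mitochondrially encoded genes, Gpx3 and Kap. Without these genes Nrl, a large Maf gene of photoreceptors with 0.2, 1.2 and 0.2 TPM as deposited, was also past it, at -1.05 for S1 minus S2 and 1.04 for S2 minus S3. With 0.1 added to TPM in place of 1, Nrl was at -2.12 and 2.12 in these contrasts. On that scale Nfe2l1 was at -1.01 for S1 minus S3 and Bach2, a CNC-related gene at 1.4, 2.2 and 0.9 TPM, at 1.20 for S2 minus S3.

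Tfcp2l1 declined in smaller steps: S1 held 29.9 TPM, S2 16.4 and S3 10.6. The step from S1 to S2 was 1.82-fold and that from S2 to S3 1.55-fold, both under the 2-fold line, and S1 over S3 was 2.82-fold, a difference of 1.41. An ordered decline of at least 2-fold from S1 to S3 was seen in 8.49% of all genes compared. Its locus spans 118627923 to 118685168 of chromosome 1 (GRCm38.p6).

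Because Tfcp2l1 is known from the collecting duct, markers of that duct were read beside it. The part of collecting duct cells in the Tfcp2l1 values was not tested. Of the 6 principal cell markers, Aqp3 (28.3, 5.2 and 0.1 TPM from S1 to S3) and Fxyd4 (32.3, 7.4 and 0.9 TPM) declined with it, and the list summed to 60.7, 13.5 and 1.4 TPM. The water channel Aqp2, which defines these cells, was at 0.1, 0.5 and 0.2 TPM, and Scnn1b, Scnn1g and Hsd11b2 were at 0.2 TPM or less in every segment. Of the 7 intercalated cell markers, the proton pump subunit gene Atp6v0a4 made up nearly all of the sums of 82.8, 59.2 and 27.4 TPM (81.1, 57.8 and 27 TPM), while Foxi1, the defining factor of these cells, was at 0.1, 0.3 and 0.1 and Slc4a1 and Aqp6 were at 0.1 or less. None of the 5 genes reported downstream of Tfcp2l1 in the collecting duct (Atp6v1b1, Jag1, Foxi1, Aqp2 and Slc4a1) reached 1 TPM in any segment. Of all 54532 genes, 16053 did.

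The CP2 relative Tfcp2, a broadly expressed factor, followed nearly the same course as Tfcp2l1. It had 21.8, 12.0 and 7.3 TPM in the segments in order, and S1 stood 2.99-fold over S3, against 2.82-fold for Tfcp2l1. The ratio of Tfcp2l1 to Tfcp2 was 1.37, 1.37 and 1.45 from S1 to S3. The third CP2 gene, Ubp1, was flat at 13.2, 12.5 and 13.3 TPM, and so Tfcp2l1 stood 2.27-fold above Ubp1 in S1 and at 0.797 of it in S3. The grainyhead relatives Grhl1 and Grhl3 were at 0.3 TPM or less, and Grhl2, an epithelial factor of the distal nephron, was at 0.2, 1.5 and 2.7 TPM. At this low level Grhl2 was past the 2-fold line at -1.06 for S1 minus S2 and -1.62 for S1 minus S3. The former fell under that line with quantile normalization and with median-of-ratios scaling.

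Emx1 was the gene of the set whose S1 value lay at least 2-fold under those of S2 and S3. S1 held 3.5 TPM, S2 9.2 and S3 12.5. S1 was 0.380 of S2 and 0.280 of S3, differences of -1.18 and -1.58, whereas S2 minus S3 was -0.40, under the 2-fold line. An ordered increase of at least 2-fold from S1 to S3 was seen in 9.18% of all genes compared. The Emx1 locus spans 85187931 to 85204463 of chromosome 6 (GRCm38.p6).

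Its paralog Emx2, which is needed for urogenital development in the mouse, had the same shape at a slightly higher level: S1 held 4.9 TPM, S2 12.9 and S3 18.2. The ratio of Emx1 to Emx2 was 0.714, 0.713 and 0.687 in the same order. The 5 thick ascending limb markers summed to 6.1, 21.9 and 30.5 TPM, of which Umod gave 0.2, 21.1 and 29.1. Ptger3, on the same list, ran the other way, at 5.4, 0.4 and 0.2 TPM. The defining transporter gene of that segment, Slc12a1, was at 0.4, 0.3 and 1.0 TPM, and Cldn16 and Kcnj1 were at 0.1 or less; the part of these cells in the Emx1, Emx2 and Pax8 values was not tested. The sources used here do not say how reads common to paralogs were assigned.

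**Figure D3:**
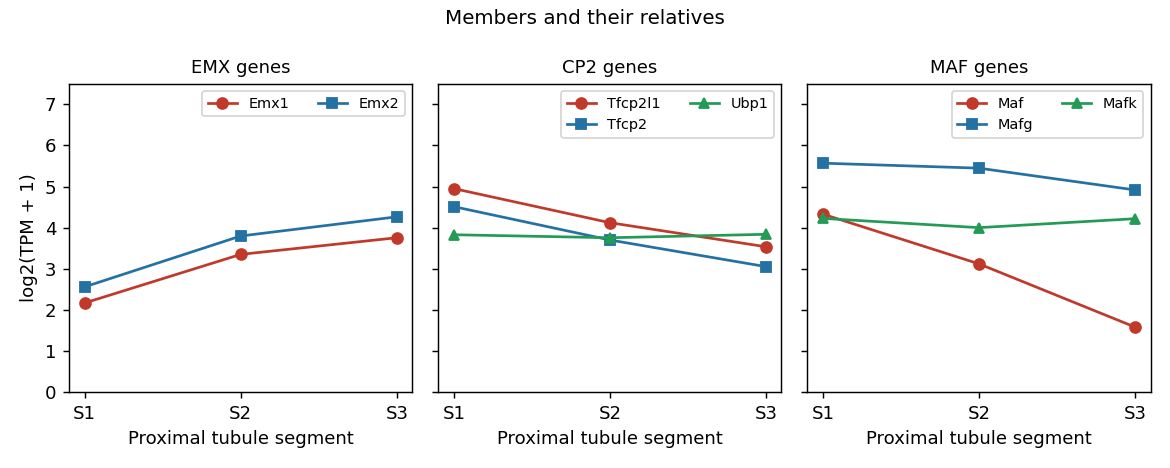
Levels in log2(TPM + 1) (y axis) of Emx1 and Emx2, of 3 CP2 genes and of Maf with the small Maf genes Mafg and Mafk, in S1, S2 and S3; each point is a single value. Emx1 runs parallel to Emx2 and Tfcp2l1 to Tfcp2, while Ubp1 and Mafk stay nearly level and Mafg declines less than Maf.

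The stretches upstream of the starts of these paralogs are shown because each pair moved together along the tubule. They are the 250 bases before the RefSeq start, 5′ to 3′ on the strand of the gene, from GRCm38.p6. The starts are those of the RefSeq promoter table, which for Tfcp2l1 lies 22 bases and for Tfcp2 6 bases inside the span of the gene, while for Emx1 and Emx2 it is the first base of the gene. Capitals mark the motifs found on either strand out of 6 searched: the TATA box (TATAAA), the GC box (GGGCGG), the CCAAT box (CCAAT), a homeodomain core (TAATTA), a Maf half-site (TGCTGA) and a CP2 motif (CCAG, 6 bases of any kind and CCAG again).
Emx1 (chr6:85187681-85187930, plus strand): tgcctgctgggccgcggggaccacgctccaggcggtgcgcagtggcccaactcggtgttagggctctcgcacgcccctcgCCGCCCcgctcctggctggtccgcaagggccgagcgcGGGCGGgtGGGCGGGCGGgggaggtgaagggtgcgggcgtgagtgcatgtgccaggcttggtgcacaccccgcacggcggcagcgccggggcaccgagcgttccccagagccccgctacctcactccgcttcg
Emx2 (chr19:59458440-59458689, plus strand): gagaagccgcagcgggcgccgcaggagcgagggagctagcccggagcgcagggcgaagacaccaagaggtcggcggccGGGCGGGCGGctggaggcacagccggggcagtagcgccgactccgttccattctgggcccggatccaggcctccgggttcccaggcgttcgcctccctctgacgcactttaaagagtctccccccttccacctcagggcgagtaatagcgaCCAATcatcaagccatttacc
Tfcp2l1 (chr1:118627695-118627944, plus strand): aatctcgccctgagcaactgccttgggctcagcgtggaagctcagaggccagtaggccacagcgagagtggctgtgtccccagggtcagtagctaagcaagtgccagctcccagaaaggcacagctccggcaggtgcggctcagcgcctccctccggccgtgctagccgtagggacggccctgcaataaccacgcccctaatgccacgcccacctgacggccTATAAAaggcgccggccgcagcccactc
Tfcp2 (chr15:100552009-100552258, minus strand): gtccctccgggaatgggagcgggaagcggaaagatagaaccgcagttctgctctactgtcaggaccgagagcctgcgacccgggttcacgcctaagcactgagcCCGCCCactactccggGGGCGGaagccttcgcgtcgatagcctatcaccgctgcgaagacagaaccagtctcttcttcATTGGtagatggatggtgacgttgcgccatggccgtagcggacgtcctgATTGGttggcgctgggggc

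Within the EMX pair, GC boxes were the common feature, with 4 in the Emx1 stretch, 3 of them between 116 and 133 bases before the start and 2 of those overlapping, and 2 overlapping ones in the Emx2 stretch, 163 to 172 bases before it. A GC box was found in 32.7% of the 32851 RefSeq stretches of this length. The Emx2 stretch also held a CCAAT box. Within the CP2 pair no motif was shared: Tfcp2l1 had a TATA box 23 to 28 bases before the start in that table, as 12.4% of all stretches had somewhere, and Tfcp2 had none but held 2 GC boxes and 2 CCAAT boxes. A CCAAT box was found in 33.8% of all stretches. The homeodomain core, the Maf half-site and the CP2 motif, present in 4.84%, 16.1% and 2.78% of all stretches, had no match in these 4.

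The 4 stretches were rich in G and C, at 75.6% for Emx1, 67.2% for Emx2, 65.2% for Tfcp2l1 and 61.6% for Tfcp2, where the median of all stretches was 52.4%. Of the 7 transcription factors, 6 had such a stretch in the RefSeq table, all but Maf. Among the rest of these, a CCAAT box stood in the Pax8 and Lhx1 stretches, and the Pax8 stretch also held a GC box and the Maf half-site. Pax2 has 3 RefSeq starts, and 2 of its stretches held a GC box. Matches are descriptions of letters and were not tested as binding sites.

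Pax8 values increased in order along the tubule but stayed within 2-fold. S1 held 44.5 TPM, S2 61.8 and S3 79.7, which placed it above 83.8%, 88.1% and 89.9% of the genes compared. The highest value was 1.79-fold the lowest, and S1 minus S3 was -0.83. Pax2 was just over the minimum of 1 TPM, with 1.7 in S1, 1.3 in S2 and 1.5 in S3. At 1 decimal and unknown depth its differences, of up to 0.23, cannot be read as a pattern. A noncoding gene inside the Pax8 locus, Gm13415, was at 0.5, 1.4 and 1.1 TPM. The level of Pax8 was 26.2-fold, 47.5-fold and 53.1-fold that of Pax2 from S1 to S3.

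Pax8 carried nearly all of the paired-box family. It made up 94.3% of the summed TPM of the 9 Pax genes in S1, 93.5% in S2 and 96.7% at the S3 end. Apart from Pax8 and Pax2, Pax6 alone reached 1 TPM, with 1.5 in S2 and 0.5 in S1 and S3. The partners through which Pax proteins reach histone methylation were present in each segment: Paxip1, the adaptor that binds Pax2, was at 9.5, 8.0 and 8.4 TPM, Pagr1a at 9.5, 16.1 and 11.5, Kmt2c at 7.3, 8.5 and 6.3 and Kdm6a at 9.7, 8.4 and 6.1. The corepressor Tle4 was at 6.8, 3.4 and 3.4 TPM, a plain ratio of 2 but 0.83 in log2(TPM + 1) for S1 over each of the others. None of the 7 partners compared reached a difference of 1 on that scale in any contrast, where 66.7% of all genes compared had no such difference. Under quantile normalization Tle4 reached it in S1 minus S2, at 1.14. At a 1.5-fold threshold Tle4, Pagr1a and Kdm6a differed between S1 and another segment, and the developmental co-regulators Eya1 and Six2 were at 0.2 TPM or less.

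Genes reported downstream of Pax2 and Pax8 in the developing kidney or the renal medulla were also read. Of 10, Lhx1 and Aqp3 (28.3, 5.2 and 0.1 TPM) reached 1 TPM, where 16053 of all 54532 genes did. Ret, the receptor of ureteric bud growth, and Slc14a2, a urea transporter, were listed at 0 in each segment, and Gdnf, Wt1, Gata3, Wnt4, Slc14a1 and Aqp2 were at 0.7 TPM or less. Wt1 is also a podocyte gene, and 4 podocyte markers summed to 6.7, 18.4 and 5.8 TPM, with Nphs1 at 0.2 or less. Of these sums Podxl gave 1.4, 13.4 and 3.1 TPM and Synpo 0.7, 2.3 and 1.2. Cdkn1c, on the same list, declined from S1 to S3, at 4.5, 2.5 and 1.4 TPM.

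For Lhx1, S1 held 7.8 TPM, S2 5.1 and S3 5.0. S1 exceeded S2 1.53-fold and S3 1.56-fold, both under the 2-fold line, and S2 and S3 were nearly equal. Within the 8 Lhx genes measured it made up 70.3%, 69.9% and 84.7% of the summed TPM. Lhx6 followed with 2.7, 0.5 and 0.2 TPM, and its differences of 1.3 for S1 minus S2 and 1.62 for S1 minus S3 passed the 2-fold line. The other 6 were at 0.6 TPM or less.

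Of the LIM cofactors, Ldb1, the adaptor that joins LIM-homeodomain proteins into complexes, was at 8.2, 12.9 and 10.9 TPM. The LIM-only gene Lmo4 was highest in S1, as was Lhx1, at 28.6, 19.3 and 24.1 TPM. Ldb2 (2.0, 17.6 and 4.6 TPM) and Lmo2, known from blood and vessel cells (1.8, 15.2 and 7.3 TPM), were at least 2-fold higher in S2 than in S1. Both had their peak in S2, as had the 8 endothelial markers, and the part of endothelium in their values was not tested.

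Cux1 was high and level. S1 held 121.8 TPM, S2 102.3 and S3 106.8, above at least 92.0% of the genes compared in each segment. The highest value was 1.19-fold the lowest, and 11.7% of all genes had a smaller range. The Cux1 locus is long, 319456 bases on chromosome 5 from 136248135 to 136567590 (GRCm38.p6), and also encodes CASP, a Golgi membrane protein that has no homeodomain, so the gene's TPM can hold transcripts of both products. Its paralog Cux2 was at 0.3, 0.3 and 0.1 TPM, leaving Cux1 with at least 99.7% of the pair in each segment. The Onecut genes, which also carry a cut repeat, were at 0.2 or less.

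Of 5 genes linked to Cux1, the cell-cycle inhibitor genes Cdkn1b, at 2.3, 3.2 and 3.2 TPM, and Cdkn1a, at 8.0, 10.5 and 12.5 TPM, stayed within 2-fold. Ctsl, the protease that processes Cux1, was at 1566, 509 and 421 TPM and Ccnd1, a cyclin, at 78.3, 13.4 and 2.6, both at least 2-fold over the other segments in S1. Golga5, the golgin that binds CASP, was at 16.3, 16.0 and 17.3 TPM. Of all genes compared, 6.62% passed the 2-fold line toward S1 against S2 and 10.5% against S3, while 66.7% stayed within 2-fold. With 5 genes, the calls say nothing about the list as a whole, and a link to Cux1 was not tested.

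**Figure D4:**
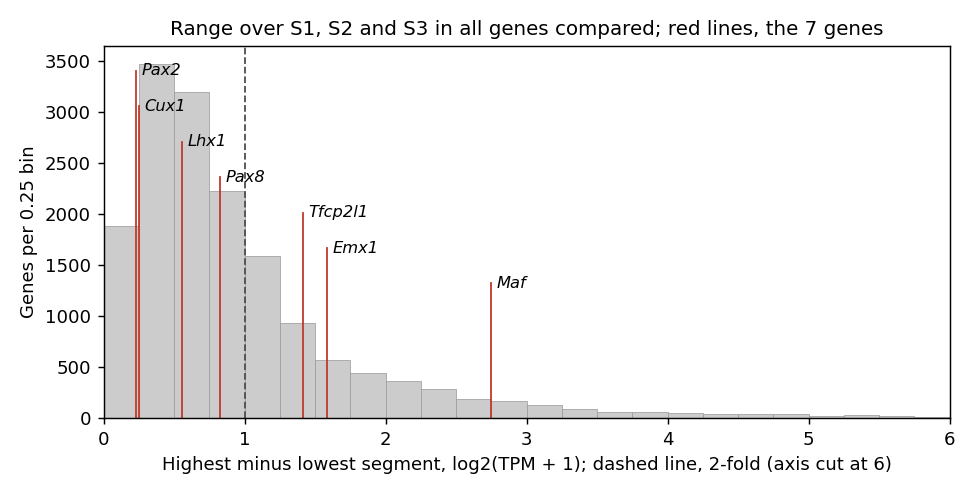
Histogram of the range over S1, S2 and S3, the highest minus the lowest log2(TPM + 1) (x axis, shown to 6), in bins of 0.25 for the 16053 genes compared (y axis, genes per bin); red lines mark the 7 transcription factors and the dashed line 2-fold. Pax2, Cux1, Lhx1 and Pax8 lie left of the dashed line, Tfcp2l1, Emx1 and Maf right of it.

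The genes closest in pattern were sought by the distance between log2(TPM + 1) values centred on each gene's mean over the 3 segments, among genes of at least 5 TPM in some segment. With 3 points many genes come close, and the distance says nothing of control. Of 9174 candidates in each case, Emx2 was the 23rd closest to Emx1, at a distance of 0.083, and Tfcp2 the 7th closest to Tfcp2l1, at 0.045. The 3 closest to Tfcp2l1 were Plod1, a collagen lysyl hydroxylase (24.7, 13.5 and 8.8 TPM), the kinase Pak1 (27.5, 15.2 and 9.9 TPM) and Trim68 (5.7, 2.7 and 1.5 TPM). St8sia6, a sialyltransferase (7.6, 18.3 and 24.7 TPM), Polg2, a subunit of the mitochondrial DNA polymerase, and Cdcp1 were the closest to Emx1.

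For Maf few genes lay near: 7 within a distance of 0.2, against 125 for Tfcp2l1, 100 for Emx1, 448 for Pax8 and 1735 for Cux1. Among these genes the count fell as the range over the segments rose, from 0.25 for Cux1 to 2.74 for Maf. The low count for Maf is thus not a trait apart from its large range. The closest to Maf were Stxbp5l (7.9, 3.2 and 0.4 TPM), Tmem26 (6.9, 2.5 and 0.3 TPM) and Plscr4, a phospholipid scramblase (13.8, 5.7 and 1.5 TPM). Closest to Pax8 were Tm2d1, Gtpbp1 and the zinc transporter gene Slc30a9, to Lhx1 Zfp346, Osbpl2 and Prkar1a, to Cux1 Tmbim4, Mterf4 and Alg12, and to Pax2, whose own differences are too small to be read as a pattern, Mcmbp, Tor1aip2 and Tmem222. Within the set, Maf and Emx1 were farthest apart, at 3.07.

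**Figure D5:**
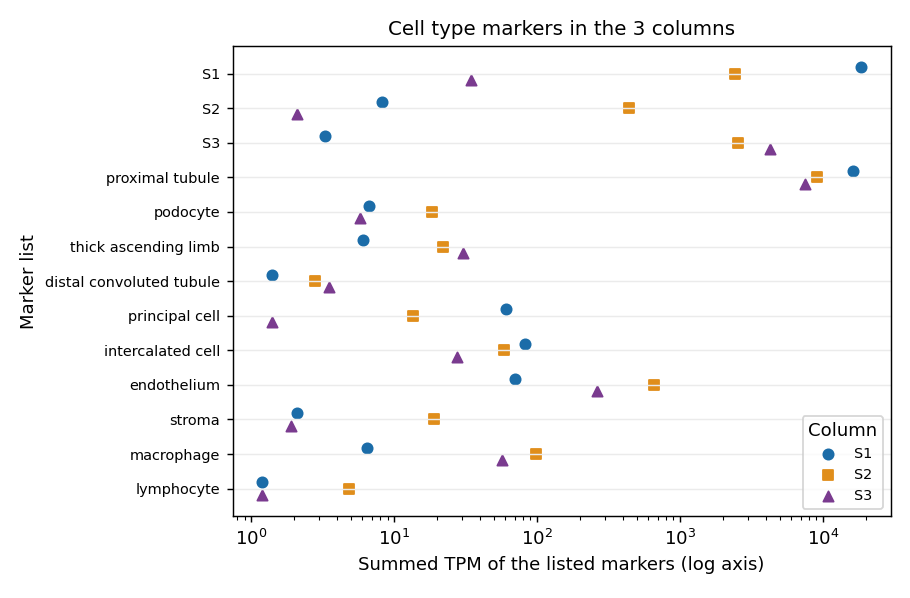
Summed TPM (x axis, log scale) of each fixed list of cell type markers in the S1, S2 and S3 columns; each point is a sum of single values. S1 markers are highest in the S1 column and S2 markers in the S2 column. S3 markers are high in both the S2 and the S3 column. The endothelial, stromal, macrophage and lymphocyte sums are highest in S2. The principal cell sum declines from S1 to S3 through Aqp3 and Fxyd4. Aqp2, Scnn1b, Scnn1g and Hsd11b2, on the same list, are at 0.5 TPM or less in each column and do not decline from S1.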

How the data were processed

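Expression was deposited by the authors as TPM, with 1 value per gene and segment and 1 decimal. The 3 columns used match the female RNA-seq groups by name; the other 5 value columns and the 24 ATAC-seq libraries were not used. Per the labels' protocols, cDNA was made with an ultra-low-input SMARTer kit in 10 to 12 PCR cycles without a stated strand mark or molecular identifier, so PCR copies and antisense reads may be in the values. The submitters' processing notes name mm10, STAR and RSEM among other tools; the sources used here do not say how libraries were combined.

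The list of genes, the lists of relatives, partners and markers, and the 2-fold threshold were chosen with earlier results of these data known. Lists were counted, and members of at least 5 TPM or absent family members were named. For each of the 7 genes the 3 closest patterns were named. Some genes are not reported here and were left out of these lists. With 1 value a segment no test was possible. Of 207 gene IDs that share a symbol, the row with the higher mean was taken; none was among the 7. Chromosome positions and upstream stretches are from RefSeq, GRCm38.p6, the assembly of mm10, matched by symbol. The code (Python 3.11.15, pandas 2.3.3) was tested on simulated data in which 200 genes were changed.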

Additional observations from a re-analysis of the deposited data

How the results depend on the processing

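Each difference of the 7 genes was recomputed under 8 alternatives, which gave 165 values. No call changed direction, and 156 of the values kept both direction and side of the threshold. Part of this was fixed beforehand, since 4 of the alternatives, named below, do not alter the differences themselves. Under quantile normalization Emx1 dropped below 2-fold for S1 minus S2, at -0.93, so that 1 gene differed in place of 2 and 0 were lower in S1. Under median-of-ratios scaling Tfcp2l1 passed 2-fold there, at 1.02, giving 2 genes higher in S1. With a 1.5-fold threshold Tfcp2l1 joined in S1 minus S2 (2 higher) and S2 minus S3 (2 apart, 2 higher), and Pax8 in S1 minus S3 (2 lower). Sign changes occurred under the 3 scaling alternatives in S2 minus S3 of Cux1 and Lhx1 alone, both near 0. Quantile normalization moved the median of all genes by 0.27 for S1 minus S2 and by -0.17 for S2 minus S3. Maf ranged from 1.13 to 1.39, 2.65 to 3.19 and 1.33 to 1.89 in S1 minus S2, S1 minus S3 and S2 minus S3. The no-filter, 5 TPM, 1.5-fold and shared-symbol alternatives leave the differences of these genes as they are. Under the other 4, Emx1 and Emx2 had the same sign in 12 of 12 differences, as had Tfcp2l1 and Tfcp2. Another added constant cannot change a sign. Median-of-ratios scaling, or leaving out the top genes, multiplies both genes of a pair by the same factor in each segment. This agreement was thus largely fixed beforehand, and no conclusion about the pairs is drawn from it. A minimum of 5 TPM left Pax2 out. Among genes of at least 20 TPM the genes closest to Maf were Il10rb, Cyp27a1 and Gas6. No paired analysis was possible because each segment has 1 value; for the same reason no library could be left out, and the depth is unknown.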

Other observations

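Some other transcription factors of the nephron were uneven along the tubule. Of 26 on a list of developmental and segment regulators, 20 reached 1 TPM. In S1 minus S2, 2 of them were at least 2-fold higher and 7 lower, where 6.62% of all genes compared were higher and 17.7% lower. In S1 minus S3 these numbers were 3 and 8, where the shares of all genes were 10.5% and 13.1%. The median difference of the 20 was -0.70 and -0.76, beside -0.18 and -0.01 for all genes compared. Osr2, an odd-skipped factor of kidney development, had 76.9 TPM in S1 but 4.2 in S2 and 8.8 in S3. Pou3f3, a POU factor of the developing nephron, was listed at 0 in S1 and was at 9.2 TPM in S2 and 13.5 in S3. Elf3, an epithelial ETS factor, was at 7.1, 19.1 and 44.1 TPM. It was the 1 gene of the list that was at least 2-fold lower in S2 than in S3, as were 2.24% of all genes compared. Under quantile normalization 4 genes of the list were so, and under median-of-ratios scaling 2. The circadian repressor gene Bhlhe40 was at 16.9, 67.8 and 83.3 TPM and Nfib at 4.8, 22.1 and 19.9. Klf15, a factor of amino acid and glucose metabolism, at 91.2, 74.8 and 73.2 TPM, and Sall1, which is needed for kidney formation in the mouse, at 7.3, 9.5 and 13.4 TPM, stayed within 2-fold. Gata3, Tfap2a, Tfap2b, Foxi1, Elf5 and Wt1, factors of the collecting duct, distal tubule or podocyte, were at 0.7 TPM or less in every segment. The summed endothelial and macrophage markers were also lowest in S1, as given above. So was the sum of the thick ascending limb markers, through Umod, while Ptger3 on that list ran the other way. The part of these cells in the differences of the listed factors was not tested.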
